A study of Homo sapiens with 6 samples.

Results

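D-type cyclins and CDK inhibitors set how readily a cell leaves G1 phase, and 10 of these genes were examined: the cyclins CCND1, CCND2 and CCND3, the CIP/KIP inhibitors CDKN1A, CDKN1B and CDKN1C, and the INK4 inhibitors CDKN2A, CDKN2B, CDKN2C and CDKN2D. They were found by name, with no threshold on expression, as the rows of the gene table whose NCBI gene identifiers carry these symbols. All 10 were found among 28395 listed genes. D-type cyclins bind the kinases CDK4 and CDK6, and the complexes phosphorylate the retinoblastoma protein RB1, which then releases E2F transcription factors to switch on genes for DNA replication. INK4 proteins bind CDK4 and CDK6 and keep the cyclin off, whereas CIP/KIP proteins bind whole cyclin-CDK complexes and inhibit those of CDK2 in particular. In glioblastoma this pathway is often altered, and the locus of CDKN2A and CDKN2B is frequently deleted.

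The libraries came from U251, an established human glioblastoma cell line. Transcript levels were compared between 3 WT libraries and 3 NUAK2-CR libraries, the latter from cells in which the kinase gene NUAK2 was targeted with CRISPR-Cas9. NUAK2-CR cells had received Cas9 and a NUAK2 guide on lentiviral vectors with GFP and mCherry, and double-positive cells were sorted singly and grown into clones. The labels do not say which clone, or how many clones, the NUAK2-CR libraries came from. The effect of targeting NUAK2 and a difference between a clone and its parent population therefore cannot be told apart. The same holds for effects of the vectors and the sorting, since no control for them is described for the WT cells. No label says that the libraries of a group came from separate cultures, and p-values then measure only the spread between libraries, which may be technical.

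Totals ranged from 35310946 to 55574081 counts in WT and from 29648445 to 33776712 in NUAK2-CR, and every WT library was deeper than every NUAK2-CR library. Levels are given as normalized counts (each library brought to the average effective library size), and differences as NUAK2-CR relative to WT. NUAK2 itself had means of 1654 ± 243 in WT and 869.5 ± 83.2 in NUAK2-CR (SD, n = 3 each), differing by -0.93 on the log2 scale (standard error 0.11, adjusted p = 1.8e-05), and the 20 tested genes nearest to it had a median of -0.82. Of 9 glial and glioma markers, 7 passed the filter on low counts and OLIG2 was at 0 in every library. Their summed level ran from 331746 to 367067 in WT and from 144893 to 151667 in NUAK2-CR. Of 8 markers of leukocytes, epithelium, endothelium, neurons and oligodendrocytes, CD3E and MOG were at 0 in every library and no marker exceeded 19.8. Their sums were 17.2 to 39.6 in WT and 36.8 to 45.01 in NUAK2-CR. Of the 3 that could be tested 1 was called, the endothelial marker PECAM1, with raw counts of 2, 0 and 0 in the WT libraries and of 12, 14 and 14 in the NUAK2-CR libraries (adjusted p = 0.000549), and the part of either marker list in the results was not tested.

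Of the 10 genes, 5 were transcribed at levels that could be tested: CCND1, CCND3, CDKN1A, CDKN1B and CDKN2D. The cyclin gene CCND1 and the inhibitor gene CDKN1B rose in NUAK2-CR, the inhibitor genes CDKN1A and CDKN2D fell, and CCND3 did not pass the test. CCND1 had the largest difference, 1.83-fold higher, and CDKN1A was 1.51-fold lower. The call for CDKN1B, 1.15-fold higher, was the weakest: it was lost with DESeq2, with no filter on low counts and in 4 of the 6 fits that left out a library, and its sign turned relative to nearby genes. The remaining 5 genes did not pass the filter on low counts. CCND2 and CDKN1C had 6 and 21 counts over all 6 libraries, and CDKN2A, CDKN2B and CDKN2C had none.

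The 4 calls among 5 tested genes, at an adjusted p under 0.05, stood beside a background in which 54.5% of the 14873 tested genes were called, 26.3% higher and 28.2% lower in NUAK2-CR. When an absolute log2 fold change over 2 was asked for as well, 4.72% of all tested genes were called and none of the 10 was. The WT and NUAK2-CR libraries did not overlap for 4 of the 5 tested genes, against 61.4% of all tested genes. The median log2 fold change over all tested genes was -0.01. In bulk RNA, fewer cells expressing a gene and less of its RNA per cell cannot be told apart.

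**Figure D1:**
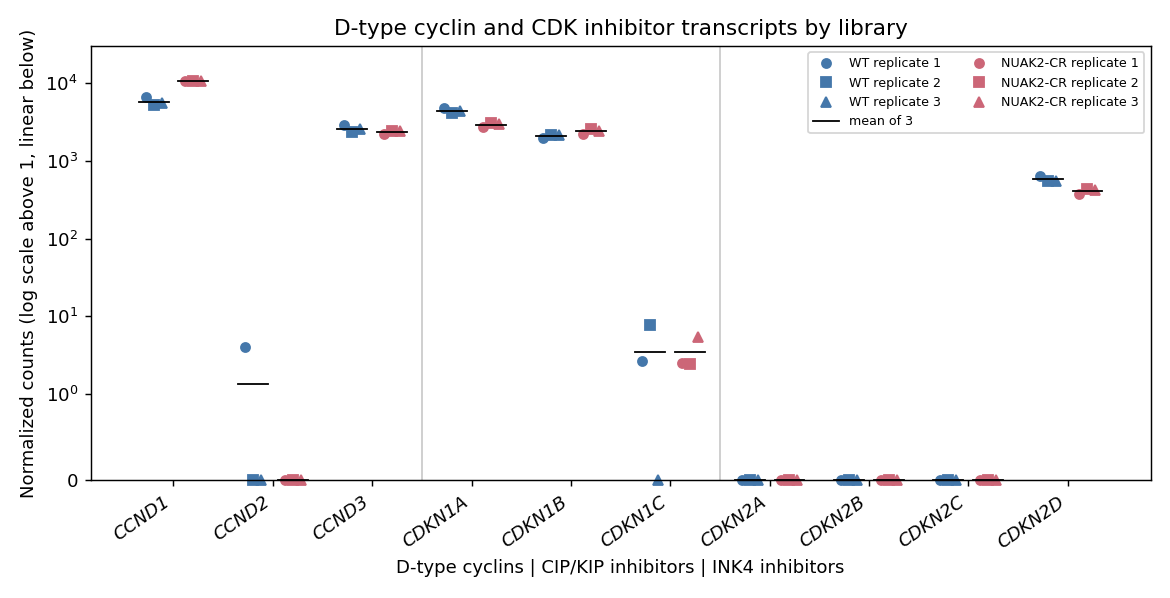
Normalized counts (y axis, log scale above 1 and linear below) of the 10 genes (x axis) in each of the 3 WT (blue) and 3 NUAK2-CR (red) libraries, with a line at the mean of 3. CCND1 lies higher in every NUAK2-CR library, CDKN1A and CDKN2D lie lower, and CDKN2A, CDKN2B and CDKN2C lie at 0 throughout.

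Among the D-type cyclins, CCND1 held most of the counts in both groups. CCND1 (gene 595, GRCh38 chromosome 11, 69641156 to 69654474) encodes cyclin D1. WT replicates 1, 2 and 3 had 6619, 5202 and 5534 normalized counts of it, and NUAK2-CR replicates 1, 2 and 3 had 10614, 10514 and 10716. All NUAK2-CR libraries lay above all WT libraries, and they lay closer together than the WT libraries did. The means of 5785 ± 741 and 10615 ± 101 (SD, n = 3 each) differed by 0.88 on the log2 scale (standard error 0.09, adjusted p = 3.29e-06). In size, this difference exceeded that of 81.8% of tested genes. The 20 nearest tested genes had a median of -0.09, less which CCND1 stood at 0.97. LTO1 overlaps CCND1 on the opposite strand, with means of 633 in WT and 619 in NUAK2-CR. Counting with default parameters does not use strand, so reads of the overlap cannot be assigned to either gene by strand.

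CCND3 (gene 896, GRCh38 chromosome 6, 41934933 to 42050035), which encodes cyclin D3, had 2897, 2351 and 2536 normalized counts in the WT libraries and 2194, 2422 and 2395 in the NUAK2-CR libraries. The groups overlapped, since WT replicate 2 lay below 2 of the NUAK2-CR libraries. The means of 2594 ± 278 and 2337 ± 124 (SD, n = 3 each) differed by -0.15 on the log2 scale (standard error 0.08, adjusted p = 0.151). Leaving out WT replicate 2 gave -0.22 with an adjusted p of 0.0485, and leaving out WT replicate 1 gave -0.06, so the call for CCND3 depends on single WT libraries. Its neighbours had a median of 0.19, less which CCND3 stood at -0.34. CCND2 (gene 894, GRCh38 chromosome 12, 4273762 to 4305353), the gene of cyclin D2, was nearly silent. Its 6 counts were all in WT replicate 1, and both it and CCND2-AS1 were otherwise at 0.

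The balance within the D-type cyclins was measured as a share inside each library, which does not depend on scaling between libraries. CCND1 took 69.5%, 68.9% and 68.6% of the D-type cyclin counts in the WT libraries and 82.9%, 81.3% and 81.7% in the NUAK2-CR libraries. The spread within a group was small against the gap between groups. With CCND2 nearly silent, this share restates the values of CCND1 and CCND3 and is no separate evidence. The mean shares were 69.0% ± 0.487 and 82.0% ± 0.819 (SD, n = 3 each), a difference of 13.0 percentage points (p = 0.1, two-sided exact permutation test, the smallest value 3 against 3 libraries can give). Counted per transcript length, the mean shares of CCND1 were 51.6% in WT and 68.5% in NUAK2-CR, a difference of 16.9 points.

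Among the CIP/KIP inhibitors, CDKN1A fell and CDKN1B was slightly higher. CDKN1A (gene 1026, GRCh38 chromosome 6, 36676463 to 36687332) encodes p21, which arrests the cycle after DNA damage. It stood at 4818, 4058 and 4337 normalized counts in the WT libraries, and at 2736, 3054 and 2982 in those of NUAK2-CR. Every NUAK2-CR library lay below every WT library. The means of 4404 ± 384 and 2924 ± 166 (SD, n = 3 each) differed by -0.59 on the log2 scale (standard error 0.08, adjusted p = 4.67e-05). The 20 nearest tested genes had a median of 0.01, so that CDKN1A stood at -0.60 relative to them.

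CDKN1B (gene 1027, GRCh38 chromosome 12, 12717368 to 12722369) encodes p27, which accumulates in resting cells. The WT libraries had 1966, 2171 and 2128 normalized counts of it, and the NUAK2-CR libraries 2198, 2552 and 2430. The groups did not overlap, but NUAK2-CR replicate 1 lay close above WT replicate 2. The means of 2088 ± 108 and 2393 ± 180 (SD, n = 3 each) stood 1.15-fold apart, or 0.20 on the log2 scale (standard error 0.08, adjusted p = 0.0454). This call was lost with DESeq2 (0.21, adjusted p = 0.0514) and without WT replicate 1 (0.16, adjusted p = 0.0718), WT replicate 3 (0.21, adjusted p = 0.0801), NUAK2-CR replicate 2 (0.15, adjusted p = 0.196) or NUAK2-CR replicate 3 (0.19, adjusted p = 0.133). Genes around CDKN1B were themselves higher, with a median of 0.42, and less that value the sign of CDKN1B turned to -0.22. GPR19 overlaps it on the opposite strand, with means of 82.0 in WT and 129 in NUAK2-CR.

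Promoter stretches are shown for CDKN1A and CDKN1B, the CIP/KIP genes with enough reads to test. Each is the 250 bases before the transcript start that a RefSeq table of GRCh38.p14 gives for the gene, on the plus strand and read 5′ to 3′. Of the 10 genes, 7 had an entry in that table. Capitals mark the GC box (GGGCGG, or CCGCCC on the other strand), to which SP1 family factors bind, and the CCAAT box (CCAAT, or ATTGG), to which NF-Y binds. The CDKN1A window is chr6:36678464-36678713, which lies inside the full span of the gene because other annotated transcripts start upstream, and the CDKN1B window is chr12:12717118-12717367.
CDKN1A: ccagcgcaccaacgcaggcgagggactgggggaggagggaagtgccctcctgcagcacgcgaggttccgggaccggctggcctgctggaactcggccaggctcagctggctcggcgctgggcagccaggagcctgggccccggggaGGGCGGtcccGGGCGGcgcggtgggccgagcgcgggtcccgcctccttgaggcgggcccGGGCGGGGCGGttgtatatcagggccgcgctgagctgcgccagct
CDKN1B: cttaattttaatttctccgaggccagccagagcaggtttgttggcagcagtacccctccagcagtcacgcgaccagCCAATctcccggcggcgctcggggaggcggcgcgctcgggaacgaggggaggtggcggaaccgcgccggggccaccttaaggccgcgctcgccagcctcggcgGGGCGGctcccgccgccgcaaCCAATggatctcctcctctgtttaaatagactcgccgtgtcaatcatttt
The CDKN1A window held 4 GC boxes, of which the last 2 overlap, and 0 CCAAT boxes. The CDKN1B window held 1 GC box and 2 CCAAT boxes. Over all 35116 windows of this length in the table, 42.6% held a GC box and 32.0% a CCAAT box, so both motifs are common and their matches describe the sequence only.

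CDKN1C (gene 1028, GRCh38 chromosome 11, 2883218 to 2885775), which encodes the imprinted inhibitor p57, had raw counts of 4, 8 and 0 in the WT libraries, and of 2, 2 and 5 in the NUAK2-CR libraries. Both groups lay at or near the floor of 3 counts that a count of 0 allows, and no fold is given. These counts have a limit of their own. The whole canonical CDKN1C transcript of 1773 bases aligned also to 1 alternate contig of the genome build, which held for none of the other 9 genes. Reads that align to more than 1 place are left out by the default setting of featureCounts, and whether the authors' copy of hg38 held alternate contigs is not given in the sources used here. NAP1L4, a neighbour whose transcript lies on such a contig too, varied between libraries of the same group, with raw counts of 418, 111 and 449 in the WT libraries and of 54, 111 and 850 in the others. The part of this in the CDKN1C counts was not tested. KCNQ1OT1, the antisense RNA of the same imprinted domain, had means of 156 ± 26.2 and 225 ± 70.7 normalized counts (SD, n = 3 each), with an adjusted p of 0.066. It passed the threshold with no filter on low counts (log2 fold change 0.51, adjusted p = 0.0342), without WT replicate 1 (0.64, adjusted p = 0.0302) and without NUAK2-CR replicate 3 (0.68, adjusted p = 0.0272).

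Within the CIP/KIP counts, the share of CDKN1A was lower in every NUAK2-CR library. CDKN1A took 71.0%, 65.1% and 67.1% of them in WT and 55.4%, 54.5% and 55.0% in NUAK2-CR, and the groups did not overlap. With CDKN1C near the floor, this followed from the values of CDKN1A and CDKN1B given above and is no separate evidence. The mean shares were 67.7% ± 3.01 and 55.0% ± 0.492 (SD, n = 3 each), a difference of -12.7 percentage points (p = 0.1, two-sided exact permutation test, again the smallest possible). Per transcript length it was -12.3 points. The ratio of CCND1 to CDKN1A, both in counts per kb of canonical transcript, sets the cyclin that rose against the inhibitor that fell. This pair joins the largest rise and the largest fall among the tested genes of the set. A gap between the groups was thus fixed by the choice, and the ratio only describes its size. The ratio was 0.686, 0.640 and 0.637 in WT and 1.94, 1.72 and 1.80 in NUAK2-CR, with means of 0.655 ± 0.0274 and 1.82 ± 0.111 (SD, n = 3 each). CDKN1A thus lay above CCND1 per kb in every WT library, and below it in every NUAK2-CR library. With the length of all annotated exons, an alternative chosen after the data were seen, the means were 0.825 and 2.29.

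**Figure D2:**
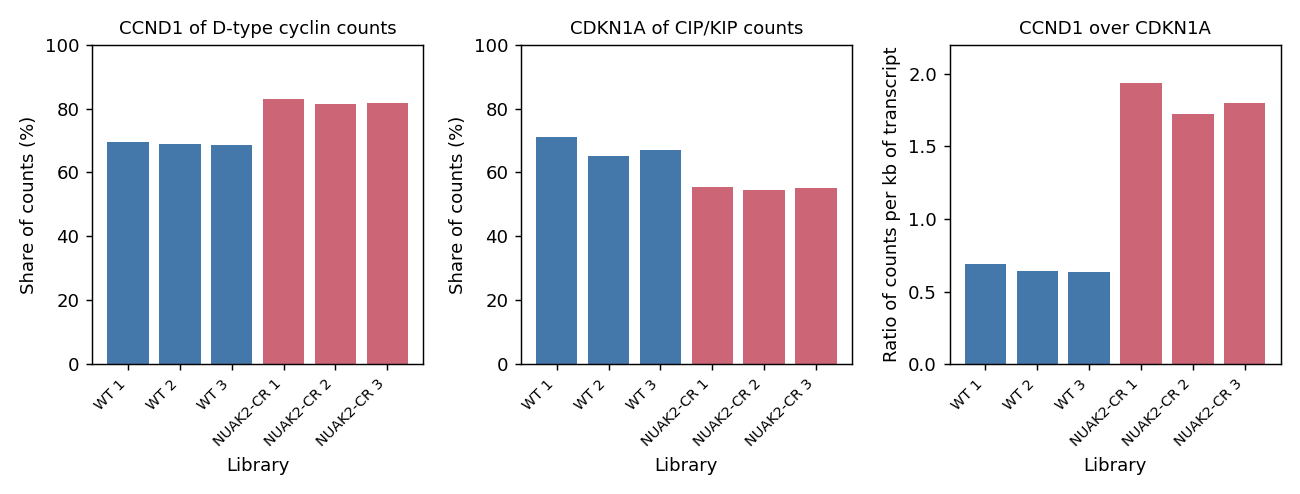
Bars, 1 per library, show the share of CCND1 in D-type cyclin counts (left, percent), the share of CDKN1A in CIP/KIP counts (middle, percent) and the ratio of CCND1 to CDKN1A in counts per kb (right), with WT in blue and NUAK2-CR in red. The CCND1 share lies under 70% in WT and over 80% in NUAK2-CR, and the ratio crosses 1 between the groups.

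Among the INK4 inhibitors, CDKN2D was the only one with reads. CDKN2D (gene 1032, GRCh38 chromosome 19, 10566460 to 10568979) encodes p19-INK4d, whose level varies through the cell cycle. The WT libraries had 639, 556 and 546 normalized counts of it, and the NUAK2-CR libraries 372, 437 and 419. Every NUAK2-CR library lay below every WT library. The means of 580 ± 51.1 and 409 ± 33.4 (SD, n = 3 each) gave a 1.42-fold lower level in NUAK2-CR, or -0.50 on the log2 scale (standard error 0.11, adjusted p = 0.00225). The 20 nearest tested genes had a median of -0.06. CDKN2D and CDKN1A, the inhibitors that fell, both kept their calls with every library left out in turn.

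CDKN2A (gene 1029, GRCh38 chromosome 9, 21967752 to 21995324) encodes p16-INK4a and, from another reading frame, the unrelated protein p14-ARF. CDKN2B (gene 1030, chromosome 9, 22002903 to 22009313) encodes p15-INK4b, a target of TGF-beta signalling. Both had 0 counts in all 6 libraries, as had CDKN2A-AS1 and CDKN2B-AS1, the antisense RNA also named ANRIL. At these depths a count of 0 allows up to 3 counts per library, which is 1.99 to 3.81 normalized counts, and this limit covers counting error only. Genes on either side were transcribed. MTAP, the metabolic gene next to CDKN2A, had raw counts of 5832, 3465 and 3061 in the WT libraries and of 4268, 4432 and 5312 in the NUAK2-CR libraries. Its normalized means of 3502 ± 323 and 5532 ± 262 (SD, n = 3 each) differed by 0.66 on the log2 scale (standard error 0.08, adjusted p = 1.7e-05). DMRTA1, on the other side of the locus, had 196 and 166 normalized counts on average in WT and NUAK2-CR. Farther out, KLHL9 (log2 fold change 0.38) and ELAVL2 (0.77) rose and FOCAD fell (-0.40).

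CDKN2C (gene 1031, GRCh38 chromosome 1, 50960745 to 50974634) encodes p18-INK4c and had 0 counts in all 6 libraries as well. Here the adjoining gene was silent too. FAF1, a gene of apoptosis signalling whose highest coordinate lies just below the lowest of CDKN2C, had 1, 2 and 0 reads in the WT libraries and 0 in every NUAK2-CR library. On the other side MIR4421, MIR6500 and C1orf185 were at 0, and the first gene with many reads was RNF11, with means of 5989 ± 443 and 5859 ± 234 normalized counts (SD, n = 3 each). CDKN2A, CDKN2B and CDKN2C were thus at 0 in WT as well as in NUAK2-CR. DNA copy number was not measured in these libraries.

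**Figure D3:**
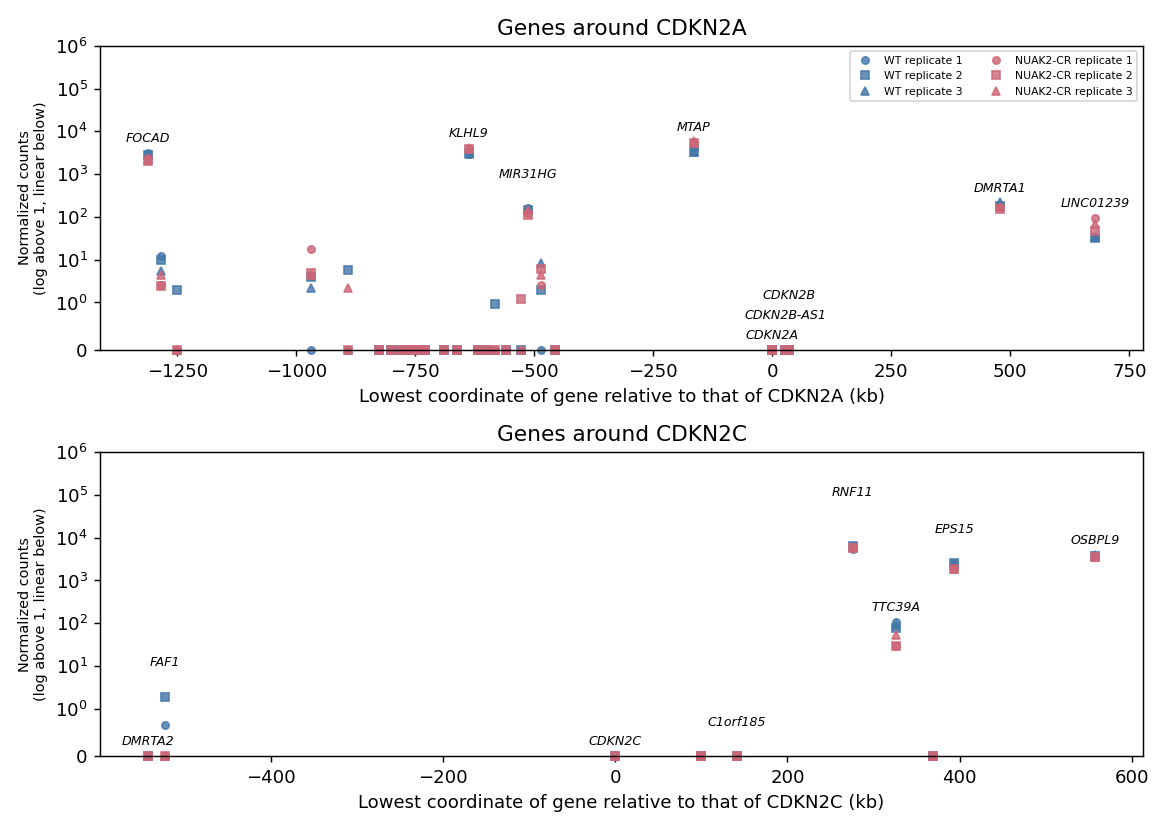
Normalized counts (y axis, log scale above 1 and linear below) of the genes around CDKN2A (top) and CDKN2C (bottom) in each library, by the distance of each gene's lowest coordinate from that of CDKN2A or CDKN2C (x axis, kb), with WT in blue and NUAK2-CR in red. CDKN2A, CDKN2B and CDKN2B-AS1 lie at 0 between the expressed genes MTAP and DMRTA1, and CDKN2C lies at 0 beside FAF1, which had 3 counts in all.

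Apart from the shares of counts, levels were compared between genes per kb of canonical transcript. In WT the order was CDKN1A at 2080.5 ± 181 normalized counts per kb (SD, n = 3), CCND1 at 1365 ± 175, CCND3 at 1281 ± 137, CDKN1B at 866 ± 44.9 and CDKN2D at 407 ± 35.9. The neighbours CCND1 and CCND3 overlapped between libraries in this order, though CCND1 lay above CCND3 inside every WT library. In NUAK2-CR it was CCND1 at 2505 ± 23.8, CDKN1A at 1381 ± 78.6, CCND3 at 1154 ± 61.4, CDKN1B at 993 ± 74.5 and CDKN2D at 287 ± 23.4, and no neighbours overlapped. CCND1 and CDKN1A exchanged the first place. When all annotated exons were used as the length, CCND1 at 1215 and CCND3 at 450 in WT did not overlap between libraries. CDKN1A at 1470 then overlapped CCND1 between WT libraries, but lay above it inside every WT library. Which ranges overlap thus rests on the length, while these orders inside a library held with both lengths. With the length of all annotated exons, CDKN1B had 226 in WT, below CDKN2D at 385.5. In NUAK2-CR it had 259 and overlapped CDKN2D at 272 between libraries, but lay below CDKN2D inside every library. The place of CDKN1B thus rests on the length chosen.

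Within WT, replicate 1, the deepest library, had the highest value of CCND1, CCND3, CDKN1A and CDKN2D and the lowest of CDKN1B. Within NUAK2-CR, replicate 1, the shallowest library, had the lowest value of CCND3, CDKN1A, CDKN1B and CDKN2D. The part of depth in these values was not tested. Without WT replicate 1 the log2 fold changes were 0.99 for CCND1, -0.51 for CDKN1A and -0.42 for CDKN2D, and without NUAK2-CR replicate 1 they were 0.89, -0.53 and -0.42.

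The partners and targets of these genes were counted in 6 lists of 98 genes, of which 1 list is not reported here. Of the 15 CDKs and later cyclins, 12 passed the test, 5 higher and 7 lower in NUAK2-CR, with a median log2 fold change of -0.36. The G1 kinases rose. CDK4 went from 7492 to 9892 normalized counts (log2 fold change 0.40, standard error 0.08, adjusted p = 0.000752) and CDK6 from 2655 to 4645 (0.81, standard error 0.08, adjusted p = 2.95e-06). CDK2, the kinase of S phase entry, rose (0.44, adjusted p = 0.00066), as did CCNE2, 1 of its cyclin genes, from 569 to 1251 (1.14, adjusted p = 2.09e-06). CCNA2, a later cyclin gene of the same list, fell from 5780 to 3691 (-0.65, adjusted p = 8.38e-06). CCNE1 had a log2 fold change of -0.34 (adjusted p = 0.118), which passed the threshold without NUAK2-CR replicate 1 (-0.51, adjusted p = 0.025). The mitotic genes CCNB1 (-1.51), CDC25C (-1.16) and CCNB2 (-0.997) fell.

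Of the 13 genes of the RB family and E2F factors, 10 passed, 7 higher and 3 lower, with a median of 0.22. RB1, the main substrate of cyclin D-CDK4/6, fell from 4900 to 3173 normalized counts (log2 fold change -0.63, adjusted p = 3.89e-06), in a stretch of chromosome 13 with a median of -0.42. Its relative RBL1 had 0.22 (adjusted p = 0.0217), a call lost without WT replicate 3 (0.20, adjusted p = 0.0726) and without NUAK2-CR replicate 3 (0.21, adjusted p = 0.0727), and RBL2 had 0.04 (adjusted p = 0.623). E2F1, the activator of S phase genes, rose from 2216 to 4216 (0.93, adjusted p = 1.5e-06), as did E2F8 (0.92) and TFDP2, an E2F partner (0.62). Of the 20 E2F target genes, 15 passed, 13 higher and 2 lower, with a median of 0.35. The helicase subunits MCM6 (0.95), MCM5 (0.83) and MCM3 (0.65) rose, as did the replication clamp PCNA (0.90).

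All 6 genes listed as proliferation markers (MKI67, TOP2A, BUB1, AURKB, PLK1 and CCNB1) fell, with a median of -0.96. The mitotic kinases PLK1 (-1.27) and AURKB (-0.95) and the topoisomerase TOP2A (-0.97) were among them, and CCNB1 is counted in this list too. MKI67 had a log2 fold change of -0.36 (adjusted p = 0.0158). This call was lost without WT replicate 2 (-0.31, adjusted p = 0.0559) and without NUAK2-CR replicate 3 (-0.26, adjusted p = 0.0851). Nearby tested genes were lower too around TOP2A (median -0.56), CCNB1 (-0.34), AURKB (-0.32) and MKI67 (-0.28), and stood at -0.05 around PLK1. Less these medians, MKI67 stood at -0.08, TOP2A at -0.40, AURKB at -0.63, CCNB1 at -1.17 and PLK1 at -1.22. The paper stained PCNA protein in tumours as a proliferation marker and reported fewer positive cells after NUAK2 deletion. That is another measure in other samples. Here the PCNA transcript was listed with the E2F targets and rose (0.90). The uniform fall therefore holds for the listed markers only. Genes of G1 and S phase and genes of mitosis thus mostly differed between the groups in opposite directions. The part of cell cycle distribution in the values of the D-type cyclins and inhibitors was not tested.

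**Figure D4:**
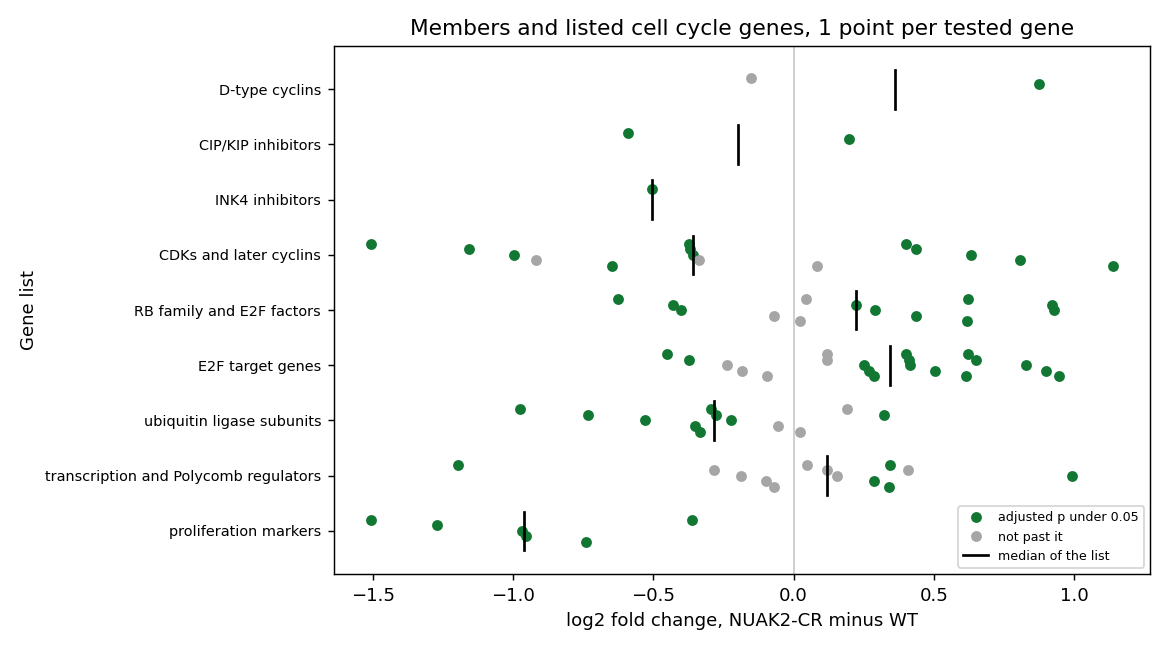
Log2 fold change, NUAK2-CR minus WT (x axis), of each tested gene in 9 gene lists (y axis), with 1 point per gene, green where the adjusted p was under 0.05 and grey otherwise, and a black line at the list median. E2F target genes have a median of 0.35 and proliferation markers of -0.96, and the 5 tested D-type cyclin and inhibitor genes lie between -0.59 and 0.88.

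Ubiquitin ligase subunits that act on cyclin D and p27 were mostly lower, with 8 of 12 lower, 1 higher and a median of -0.29. CKS1B, the cofactor that lets SKP2 bind p27 (-0.98), CUL4A (-0.73), UBAC1 (-0.53) and SKP1 (-0.35) fell, and the call for SKP1 was lost without NUAK2-CR replicate 1 (-0.28, adjusted p = 0.0537). Nearby tested genes were lower too around CUL4A (median -0.41) and CKS1B (-0.34), less so around SKP1 (-0.11), and stood at -0.01 around UBAC1. SKP2, which carries p27 to the ligase, was the 1 that rose (log2 fold change 0.32, adjusted p = 0.00351). Of 13 transcription and Polycomb regulators of the D-type cyclin and inhibitor genes, 5 passed, 4 higher and 1 lower, with a median of 0.12. MYC, a repressor of CDKN1A and CDKN2B, rose from 1770 to 3515 normalized counts (0.99, adjusted p = 1.54e-07) in a stretch with a median of 0.57. FOXO1, an activator of CDKN1B, fell (-1.20) in a stretch with a median of -0.32. FOXO3, which shares that role (0.34), and SMAD4, a mediator of TGF-beta signals (0.34), rose.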

How the data were processed

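Bulk RNA-seq of polyadenylated RNA was analysed in 6 libraries, grouped by the sample labels. Per the methods, reads were trimmed (Trimmomatic), aligned to hg38 (HISAT2) and counted per gene (featureCounts) with default parameters; the deposited values are these raw counts. The annotation is not given in the sources used here. The default of featureCounts does not use strand, so genes overlapping on opposite strands are uncertain. Of 28395 identifiers, 27745 matched a RefSeq symbol and 650 did not; 7516 had no count.

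Counts were fitted with edgeR 4.0.16 in R 4.3.3 (filterByExpr, TMM, glmQLFit, glmQLFTest, prior count 0.125), on 14873 genes, and p-values were adjusted by the Benjamini-Hochberg procedure over all of them. The standard error is the log2 fold change divided by the root of F. The common biological coefficient of variation was 0.101. Replicates of a group differed by more than sampling noise (chi-square per degree of freedom 6.37 to 56.0).

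The 10 genes, the gene lists and the rules were chosen with earlier results of these data known, and the lists support nothing independently. Named genes were the 10, NUAK2, a set of pathway genes always given (among them CDK4, CDK6, RB1, E2F1, MYC and MKI67) and, from each list, the 4 with the largest absolute log2 fold change among called genes whose higher group averaged 100 or more normalized counts. FAF1, RNF11, NAP1L4, DMRTA1, LTO1, GPR19, PECAM1, CCNA2 and genes at 0 beside the INK4 loci were named after their values were seen. Regional medians use the 20 tested genes that start nearest on the chromosome. Lengths are of Ensembl canonical transcripts, which minimap2 2.31 aligned to the alternate contigs, with at least 90 percent of a transcript counted as held. Motifs were searched on both strands. The results of 1 gene and 1 list are not reported here.

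Alternatives were DESeq2 1.42.0, no filter, at least 10 counts in every library, RLE scaling, library totals, each library left out, a replicate block, a prior count of 2, an absolute log2 fold change over 2, regional medians and shares per length. Another gene length was added after the data were seen. Intervals and floors cover counting error only.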

Additional observations from a re-analysis of the deposited data

How the results depend on the processing

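CCND1, CDKN1A and CDKN2D kept their direction and, at an adjusted p under 0.05, their call under every alternative fit. With a library left out, their log2 fold changes ranged from 0.80 to 0.99, -0.65 to -0.51 and -0.55 to -0.42, CCND3 from -0.22 (adjusted p = 0.0485, without WT replicate 2) to -0.056 (without WT replicate 1), and CDKN1B from 0.15 to 0.27. CDKN1B lost its call with DESeq2 (0.21) and with no filter on low counts (0.19, adjusted p = 0.0584). Less the median of the 20 nearest tested genes, CDKN1B reversed to -0.22, CCND1 was 0.97 and CCND3 was -0.34. The causes were not tested. An absolute log2 fold change over 2 left 0 of the 10 genes, 1 of the 98 listed genes and 702 genes in all, which follows from the stricter rule. With a library left out, 3 to 5 of the 10 genes, 60 to 72 listed genes and 7190 to 8481 genes were called. The CCND1 share then differed by 12.5 to 13.3 percentage points and the CDKN1A share by -14.1 to -11.1. Of the values of single pathway genes under the alternatives, 547 kept their side of the threshold, 7 passed it newly and 5 no longer did.

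Replicate numbers did not pair the libraries: deviations of same-numbered libraries correlated at 0.061, -0.092 and 0.113. A fit with the replicate number as a block gave 4 calls among the 10 genes, with log2 fold changes of 0.88 for CCND1, -0.15 for CCND3, -0.59 for CDKN1A, 0.20 for CDKN1B and -0.50 for CDKN2D, 68 calls among the listed genes and 8167 in all; of the named genes, CCNE1 (-0.35) and KCNQ1OT1 (0.51) passed the threshold with the block and not in the same fit without it; KCNQ1OT1 also passed with no filter on low counts (0.51). Depth limits what can be said of CCND2, CDKN1C and the INK4 genes at 0, which had under 10 counts in any library.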
